A study of Mus musculus with 21 samples.

Results

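The 41 genes described here make the ribosome in the nucleolus. They were taken as a list of symbols covering RNA polymerase I and its factors, the helpers that process the ribosomal RNA precursor, and the assembly factors of both ribosomal subunits. All 41 were present among the 23204 gene symbols counted in each of 21 libraries, and they were followed over 7 groups of 3 libraries and set beside the Rn45s entry, which is named for the ribosomal RNA precursor. The cells were lung fibroblasts of female C57BL/6 mice with a green fluorescent protein transgene under the Col1a2 promoter. Treated mice received 1 oropharyngeal aspiration of bleomycin (BLM, 2 mg/kg) or of crystalline silica (SiO2, 400 mg/kg), both of which injure the lung and start fibrosis, and lungs were taken at day 7, 14 or 63. The control mice, of the same line, were untreated. Live cells that carried the fluorescent protein and lacked the lineage markers CD45, CD31, EpCAM, CD146 and Ter119 were sorted, so only cells with an active Col1a2 promoter were seen. Tags from the 3′ ends of polyadenylated RNA were sequenced (3′SAGE-seq), which gives 1 site per transcript and no view of isoforms. The labels do not say whether the 3 libraries of a group came from separate mice, so p-values measure only the spread between these libraries.

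A ribosome begins with transcription of the ribosomal DNA by RNA polymerase I in the nucleolus. The long precursor RNA is modified by small nucleolar ribonucleoproteins (snoRNPs), of the box C/D kind for methylation and the box H/ACA kind for pseudouridylation, and is cut and folded into the small and large subunits by large sets of assembly factors. Growing and dividing cells make many ribosomes, and Myc is a known activator of the whole programme.

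Total counts per library ran from 2080636 in untreated replicate 3 to 4477283 in SiO2 day 63 replicate 3. Of the symbols, 11669 passed a filter on low counts and were tested, among them all 41 genes of the list. A single library held 1 to 1164 counts of a listed gene, 11 genes fell below 10 counts in at least 1 library and 16 held at least 50 in every library, so weak changes of the lowest genes were not detectable at this depth. Values are CPM, the counts scaled by TMM to a common library total, which corrects for library size and composition. Differences are log2 fold changes with their standard error, and a gene was called where edgeR's quasi-likelihood test gave a Benjamini-Hochberg adjusted p below 0.05, adjusting across every gene in the fit. The sorted cells carried fibroblast markers in every library, with 9 genes summing to 27858 to 43093 CPM. Summed markers of other cell types were below those of fibroblasts: 6 mesothelial genes summed to at most 640.0 CPM, 7 pericyte and smooth muscle genes to at most 150.1 CPM, 8 myeloid genes to at most 32.4 CPM, 8 epithelial genes to at most 33.1 CPM, 6 endothelial genes to at most 30.4 CPM and 5 lymphocyte genes to at most 72.1 CPM in any library. Their sums differed between groups. Mesothelial sums were 126 to 179 CPM at SiO2 day 7 and 222 to 254 CPM at SiO2 day 63, against 515 to 640.0 CPM in untreated libraries. Pericyte and smooth muscle sums were 91.7 to 150.1 CPM at BLM day 14 and 84.8 to 119 CPM at SiO2 day 7, against 19.7 to 22.8 CPM in untreated libraries. Myeloid sums were 14.5 to 23.1 CPM at BLM day 7 and 18.0 to 32.4 CPM at SiO2 day 14, against 3.37 to 6.53 CPM in untreated libraries. Epithelial sums were 27.3 to 33.1 CPM at BLM day 7 and 20.3 to 28.3 CPM at SiO2 day 7. They were 6.78 to 12.2 CPM in untreated libraries. Endothelial sums were 5.65 to 9.67 CPM at BLM day 14 and 4.56 to 11.04 CPM at SiO2 day 7. They were 21.6 to 30.4 CPM in untreated libraries. The endothelial genes Cdh5, Vwf and Cldn5 had 0 counts at BLM day 14, at SiO2 day 7 and in untreated libraries. Lymphocyte sums were 29.5 to 53.7 CPM at BLM day 7 and 29.8 to 72.1 CPM at SiO2 day 7, against 3.28 to 5.02 CPM in untreated libraries. Not all lymphocyte genes shared in this. Cd3e and Cd79a had 0 counts at BLM day 7, and Cd3e, Cd3g and Cd79a had 0 at SiO2 day 7. Cd3g and Ms4a1 had 0 in untreated libraries. At SiO2 day 63, 4 of the 5 genes had 0 counts, so a single gene made up the sum of 31.4 to 43.9 CPM. The part of these marker differences in the results was not tested. Because bulk RNA was measured, fewer cells of a type and less RNA per cell cannot be told apart.

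Against untreated fibroblasts, 14 of the 41 genes were higher in at least 1 of the 6 treated groups and 5 were lower in at least 1. None was called in both directions and 22 were not called in any. The matching totals over all tested genes were not counted, so these totals are not read as a result about the list. The same holds for counts by role, given below, that pool the 6 comparisons with untreated. At BLM day 7, 10 genes were higher and 1 was lower, where 16.7% of all tested genes were called higher and 14.9% lower. At BLM day 14, 9 were higher and 5 lower, against 20.7% and 18.5% of all tested genes. At BLM day 63, 1 was higher (Rrn3) and 1 lower (Nop56), against 6.02% and 5.48%. At SiO2 day 7, 12 were higher and 0 lower, against 23.4% and 20.6%. In either direction 16 of the genes had an unadjusted p under 0.05, and DESeq2 called 10 (40.5% of all tested genes). At SiO2 day 14, 3 were higher and 2 lower, against 13.6% and 10.5%. At SiO2 day 63, 6 were higher and 3 lower, against 15.3% and 12.5%. The genes called higher made up 24.4% of the list at BLM day 7, 22% at BLM day 14 and 29.3% at SiO2 day 7, which is near the share over all genes, so the number of higher calls says nothing particular about the list. The genes called lower made up 2.44% of the list at BLM day 7 and none of it at SiO2 day 7. Median log2 fold changes of the list were 0.25 at BLM day 7, 0.18 at BLM day 14, -0.04 at BLM day 63, 0.30 at SiO2 day 7, -0.03 at SiO2 day 14 and 0.05 at SiO2 day 63, while the median over all tested genes lay between 0.01 and 0.04.

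Single libraries weighed on some of these counts. At BLM day 7, 5 genes were called when untreated replicate 1 was left out and 7 when BLM day 7 replicate 2 was left out. At BLM day 63 the count was 0 without untreated replicate 1, without untreated replicate 2 or without BLM day 63 replicate 3, and 1 without either of the other BLM day 63 libraries. At SiO2 day 14, 3 were called when untreated replicate 1 or either of SiO2 day 14 replicates 1 and 2 was left out. At SiO2 day 63, 5 were called without untreated replicate 1 or 2.

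**Figure D1:**
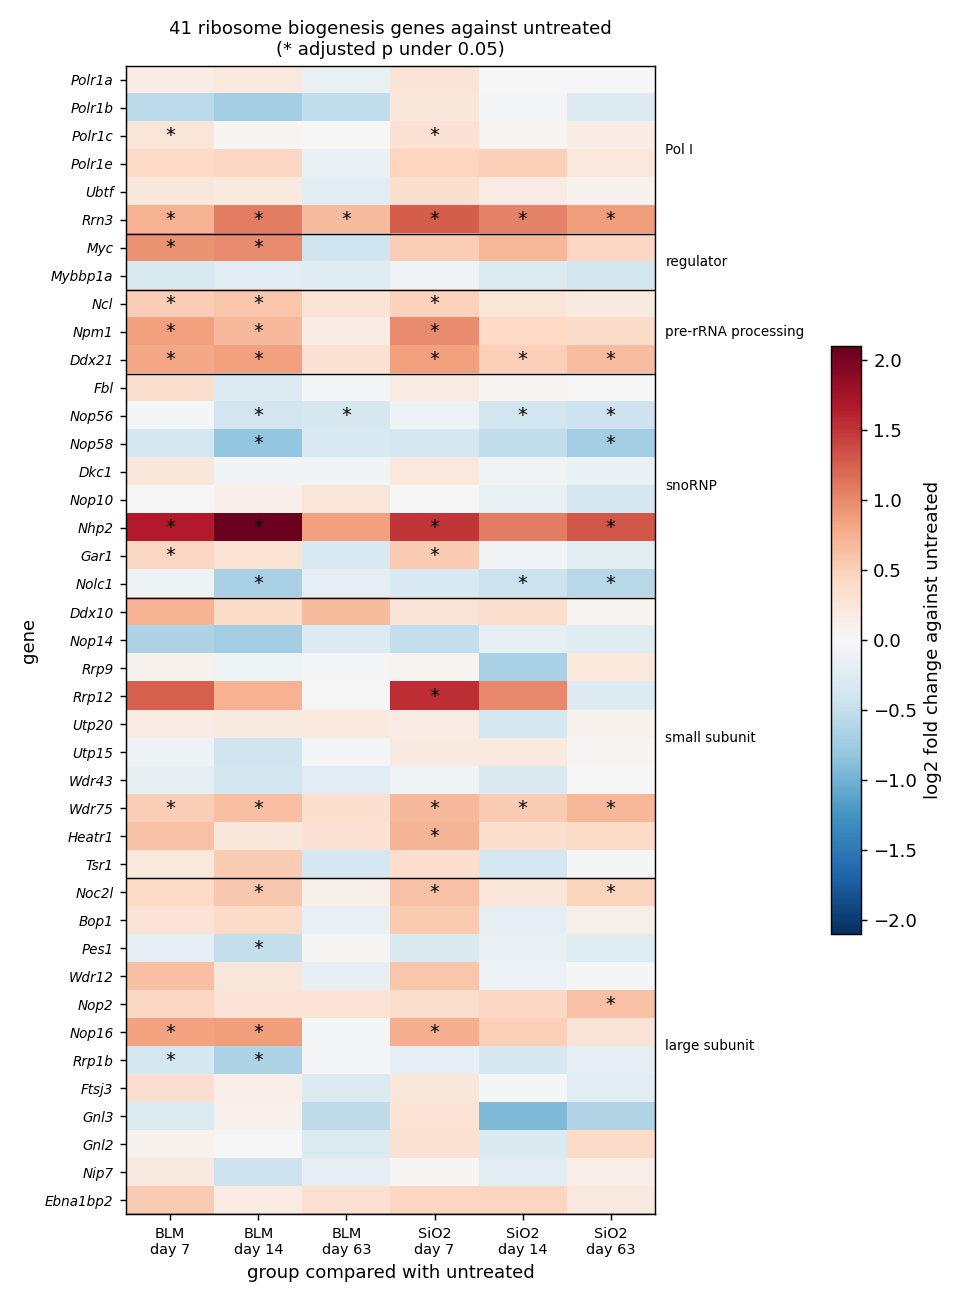
Log2 fold changes of the 41 genes (rows, grouped by role) in each treated group against untreated (columns, 3 libraries each), with a star where the adjusted p of edgeR's quasi-likelihood test was under 0.05. Rrn3 is starred in all 6 columns and Nop56 is lower in 4, BLM day 7 has a gene called higher in each role, and the box C/D snoRNP genes Nop56 and Nop58 and the snoRNP chaperone Nolc1 are on the blue side.

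Rrn3, the initiation factor that brings RNA polymerase I to the ribosomal DNA promoter, was the only gene of the list called higher in all 6 treated groups. In BLM libraries Rrn3 had 38.9, 38.6 and 33.6 CPM at day 7, 50.9, 41.8 and 47.8 CPM at day 14 and 33.4, 33.9 and 39.1 CPM at day 63. In SiO2 libraries Rrn3 had 38.4, 60.8 and 63.3 CPM at day 7, 49.6, 56 and 32.8 CPM at day 14 and 38.4, 42.1 and 42.7 CPM at day 63. Untreated libraries had 19.7, 21.4 and 27.2 CPM of Rrn3. Each of the 18 treated libraries lay above every untreated one. Its log2 fold change was 0.73 ± 0.19 at BLM day 7 (adjusted p = 0.00374), 1.07 ± 0.19 at BLM day 14 (adjusted p = 3.6e-05) and 0.67 ± 0.19 at BLM day 63 (adjusted p = 0.0189). In SiO2 it was 1.28 ± 0.19 at day 7 (adjusted p = 1.39e-06), 1.04 ± 0.19 at day 14 (adjusted p = 9.41e-05) and 0.88 ± 0.19 at day 63 (adjusted p = 0.000551). The level at SiO2 day 7 was 2.43-fold higher than in untreated libraries. The call at BLM day 63 was lost without untreated replicate 1 (adjusted p = 0.119), untreated replicate 2 (adjusted p = 0.0749) or BLM day 63 replicate 3 (adjusted p = 0.0954).

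Of the other 5 polymerase I genes, Polr1c alone was called against untreated. Polr1a and Polr1b encode the subunits that form the catalytic core. Polr1a had 12.5, 10.6 and 9.82 CPM at BLM day 7, 12, 12.6 and 9.67 CPM at BLM day 14 and 9.71, 6.03 and 10.2 CPM at BLM day 63. Polr1a had 11.8, 10.4 and 13.2 CPM at SiO2 day 7, 6.54, 9.86 and 12.9 CPM at SiO2 day 14 and 10.5, 10.1 and 9.13 CPM at SiO2 day 63. Untreated libraries had 9.84, 11.3 and 7.49 CPM of Polr1a. The treated and untreated libraries of Polr1a overlapped in every group. Polr1b had 1.74, 2.38 and 1.90 CPM at BLM day 7, 0.706, 2.39 and 2.21 CPM at BLM day 14 and 1.99, 2.30 and 2.0 CPM at BLM day 63. Polr1b had 4.51, 2.39 and 3.80 CPM at SiO2 day 7, 2.67, 3.46 and 2.67 CPM at SiO2 day 14 and 1.58, 3.46 and 2.45 CPM at SiO2 day 63. Untreated libraries had 2.85, 3.01 and 3.28 CPM of Polr1b. The 3 BLM day 7, BLM day 14 and BLM day 63 libraries of Polr1b were all below the untreated ones. Neither gene was called against untreated, with log2 fold changes of -0.16 to 0.27 for Polr1a and -0.72 to 0.24 for Polr1b.

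Ubtf, the factor that keeps ribosomal DNA in an open, transcribed form, had 34, 41.5 and 37.7 CPM at BLM day 7, 41.7, 31.4 and 37.9 CPM at BLM day 14 and 26.6, 27.3 and 28.7 CPM at BLM day 63. Ubtf had 36.6, 43.6 and 40.8 CPM at SiO2 day 7, 33.3, 42.4 and 32.3 CPM at SiO2 day 14 and 30.2, 35.7 and 35.2 CPM at SiO2 day 63. Untreated libraries had 35.5, 29.4 and 30.9 CPM of Ubtf. All 3 BLM day 63 libraries were below all untreated ones, and at SiO2 day 7 all 3 were above them, but Ubtf was not called against untreated in any group (log2 fold change 0.33 ± 0.14 at SiO2 day 7, adjusted p = 0.0608). Polr1c, a subunit shared by polymerases I and III, was higher at BLM day 7 (0.25 ± 0.09, adjusted p = 0.0388) and SiO2 day 7 (0.30 ± 0.09, adjusted p = 0.00905). The BLM day 7 call of Polr1c was lost without any 1 of untreated replicates 1, 2 and 3 and BLM day 7 replicates 1 and 2 (adjusted p = 0.0642 to 0.209), with both other scalings, no filter and only the groups compared (adjusted p up to 0.104). Its SiO2 day 7 call was lost without SiO2 day 7 replicate 3 (adjusted p = 0.0575) and with upper quartile scaling (adjusted p = 0.0543). Polr1e, a subunit found in polymerase I alone, was not called, with log2 fold changes of -0.14 to 0.50.

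Sequence upstream of the start is shown for the genes that were called against untreated in 4 or more groups with at least 20 CPM, and for Nop58, the partner of Nop56, so that genes on both sides of the response can be read side by side. Each run holds the 250 bases before the RefSeq start (GRCm38.p6), and capitals mark CACGTG, the E-box to which Myc and related factors can bind. The window of Rrn3 lies at chr16:13780449-13780698 on the plus strand, that of Ddx21 at chr10:62602299-62602548 on the minus strand and that of Wdr75 at chr1:45794916-45795165 on the plus strand. Those of Nop56 and Nop58 lie at chr2:130274162-130274411 and chr1:59684756-59685005, both on the plus strand.
Rrn3: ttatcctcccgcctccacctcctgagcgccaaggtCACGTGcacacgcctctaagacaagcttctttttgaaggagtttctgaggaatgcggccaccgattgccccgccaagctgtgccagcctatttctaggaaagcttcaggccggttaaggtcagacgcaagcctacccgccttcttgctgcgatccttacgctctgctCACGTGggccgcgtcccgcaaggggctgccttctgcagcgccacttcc
Ddx21: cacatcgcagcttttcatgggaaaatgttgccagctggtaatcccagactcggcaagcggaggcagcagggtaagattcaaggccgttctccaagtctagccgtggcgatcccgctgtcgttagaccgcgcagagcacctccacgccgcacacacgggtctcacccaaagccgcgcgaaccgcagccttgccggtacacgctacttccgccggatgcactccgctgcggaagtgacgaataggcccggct
Wdr75: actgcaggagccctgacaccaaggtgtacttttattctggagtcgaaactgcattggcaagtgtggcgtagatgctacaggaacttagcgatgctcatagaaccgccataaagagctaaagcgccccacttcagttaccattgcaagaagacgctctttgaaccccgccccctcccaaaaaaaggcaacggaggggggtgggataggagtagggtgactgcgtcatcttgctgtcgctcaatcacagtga
Nop56: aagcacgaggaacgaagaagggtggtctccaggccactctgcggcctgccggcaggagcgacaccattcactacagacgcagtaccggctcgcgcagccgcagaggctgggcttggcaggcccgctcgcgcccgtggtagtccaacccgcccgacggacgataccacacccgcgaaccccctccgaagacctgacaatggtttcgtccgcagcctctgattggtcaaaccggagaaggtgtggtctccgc
Nop58: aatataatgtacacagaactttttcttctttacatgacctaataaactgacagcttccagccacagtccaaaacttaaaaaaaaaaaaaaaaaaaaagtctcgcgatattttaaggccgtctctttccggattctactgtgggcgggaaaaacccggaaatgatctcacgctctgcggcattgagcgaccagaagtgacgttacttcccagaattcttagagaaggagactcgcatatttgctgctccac
Rrn3 holds 2 E-boxes, which start 215 and 48 bases before the gene, and the other 4 windows hold none. Of the 41 genes, 35 had an entry, and CACGTG, which reads the same on both strands, was in 2 of them, Rrn3 and Nop2 (60 bases before the start). The motif was in 6.02% of 32851 promoter windows of this length. Counted by gene, 10.0% of 8398 tested genes had it in at least 1 window, and some genes have several windows. The longer letters CCGGAAG, the core that ETS factors bind, were searched on both strands. They were in 8 of the 35 genes (Nhp2, Gar1, Nolc1, Polr1c, Nop2, Ddx10, Nip7 and Heatr1) and in 15.8% of tested genes. TCGCGA, a palindrome common in promoters without a TATA box, was in 4 (Nop58, Mybbp1a, Nop14 and Tsr1), against 4.79% of tested genes. Npm1, Fbl, Myc, Bop1, Gnl2 and Rrp12 had no entry.

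Myc, the transcription factor that activates ribosome production, was higher in the bleomycin groups at day 7 and day 14. In BLM libraries Myc had 9.58, 8.72 and 11.7 CPM at day 7, 12.7, 10.8 and 7.74 CPM at day 14 and 2.24, 5.45 and 4.0 CPM at day 63. In SiO2 libraries Myc had 5.77, 6.91 and 9.62 CPM at day 7, 8.62, 5.06 and 11.4 CPM at day 14 and 6.31, 7.19 and 7.57 CPM at day 63. Untreated libraries had 3.37, 7.28 and 4.68 CPM of Myc. The BLM day 7 and day 14 libraries all lay above the untreated ones, while the SiO2 day 7 and day 14 libraries overlapped them. The log2 fold change was 0.94 ± 0.33 at BLM day 7 (adjusted p = 0.0262) and 0.99 ± 0.33 at BLM day 14 (adjusted p = 0.0161). It was 0.52 ± 0.34 at SiO2 day 7 (adjusted p = 0.215) and 0.70 ± 0.33 at SiO2 day 14 (adjusted p = 0.129). A direct comparison of SiO2 with BLM did not call Myc at day 7 (-0.42 ± 0.30, adjusted p = 0.442) or day 14 (-0.29 ± 0.30, adjusted p = 0.573). The BLM day 7 call was lost without untreated replicate 1 (adjusted p = 0.173), untreated replicate 3 (adjusted p = 0.0629) or BLM day 7 replicate 3 (adjusted p = 0.0958). The BLM day 14 call was lost without untreated replicate 1 (adjusted p = 0.129) or BLM day 14 replicate 1 (adjusted p = 0.0762). Mybbp1a, a nucleolar partner of Myb, was not called, with log2 fold changes of -0.39 to -0.08.

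Nucleolin, nucleophosmin and the helicase Ddx21 are nucleolar proteins that accompany the precursor RNA. Transcripts of all 3 were higher at day 7 in both models and at BLM day 14. In BLM libraries Ncl, nucleolin, had 111, 141 and 138 CPM at day 7, 158, 121 and 131 CPM at day 14 and 109.8, 111 and 115 CPM at day 63. In SiO2 libraries Ncl had 121, 121 and 141 CPM at day 7, 104, 111 and 112 CPM at day 14 and 107, 104 and 101 CPM at day 63. Untreated libraries had 86.3, 82.9 and 107 CPM of Ncl. All BLM libraries and the SiO2 day 7 libraries lay above the untreated ones, and those of SiO2 day 14 and day 63 overlapped them. Ncl rose by 0.51 ± 0.12 at BLM day 7 (adjusted p = 0.00116), 0.58 ± 0.12 at BLM day 14 (adjusted p = 0.000203) and 0.49 ± 0.12 at SiO2 day 7 (adjusted p = 0.00109) on the log2 scale.

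In BLM libraries Npm1, nucleophosmin, a chaperone of the granular zone of the nucleolus, had 36.3, 42 and 33.9 CPM at day 7, 44.5, 29 and 27.1 CPM at day 14 and 19.9, 24.1 and 25.1 CPM at day 63. In SiO2 libraries Npm1 had 41.9, 36.9 and 44.8 CPM at day 7, 34.5, 26.4 and 22.6 CPM at day 14 and 23.7, 31.7 and 25.8 CPM at day 63. Untreated libraries had 17.4, 20.3 and 25.8 CPM of Npm1. All libraries of both day 7 groups and of BLM day 14 were above the untreated ones, and the later groups overlapped them. The log2 fold change was 0.86 ± 0.19 at BLM day 7 (adjusted p = 0.000815), 0.68 ± 0.19 at BLM day 14 (adjusted p = 0.00565) and 0.99 ± 0.19 at SiO2 day 7 (adjusted p = 6.67e-05). The BLM day 14 call was lost without untreated replicate 1 (adjusted p = 0.0543) or BLM day 14 replicate 1 (adjusted p = 0.0882). Npm1 has processed copies in the mouse genome, and how reads shared with them were counted is not given in the sources used here, so its level is uncertain.

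In BLM libraries Ddx21, a helicase that works on both polymerase I transcription and precursor processing, had 31.6, 49.1 and 45.6 CPM at day 7, 50.9, 40.0 and 40.1 CPM at day 14 and 33.6, 27 and 28 CPM at day 63. In SiO2 libraries Ddx21 had 31.9, 46.2 and 52.9 CPM at day 7, 35.4, 34.4 and 31.8 CPM at day 14 and 37.3, 35.4 and 40.1 CPM at day 63. Untreated libraries had 21.2, 28.6 and 21.1 CPM of Ddx21. Only BLM day 63 overlapped the untreated libraries. Ddx21 was higher at BLM day 7 (0.82 ± 0.18, adjusted p = 0.000851) and BLM day 14 (0.86 ± 0.18, adjusted p = 0.000342). It was also higher at SiO2 day 7 (0.87 ± 0.18, adjusted p = 0.00023), SiO2 day 14 (0.50 ± 0.19, adjusted p = 0.0486) and SiO2 day 63 (0.65 ± 0.18, adjusted p = 0.00685). The SiO2 day 14 call was lost without any 1 of untreated replicates 1 and 3 and SiO2 day 14 replicates 1, 2 and 3 (adjusted p = 0.0528 to 0.215). It was also lost with DESeq2 (adjusted p = 0.0797), with both other scalings and with the replicate block (adjusted p = 0.0552). The SiO2 day 63 call was lost without untreated replicate 1 (adjusted p = 0.0566).

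**Figure D2:**
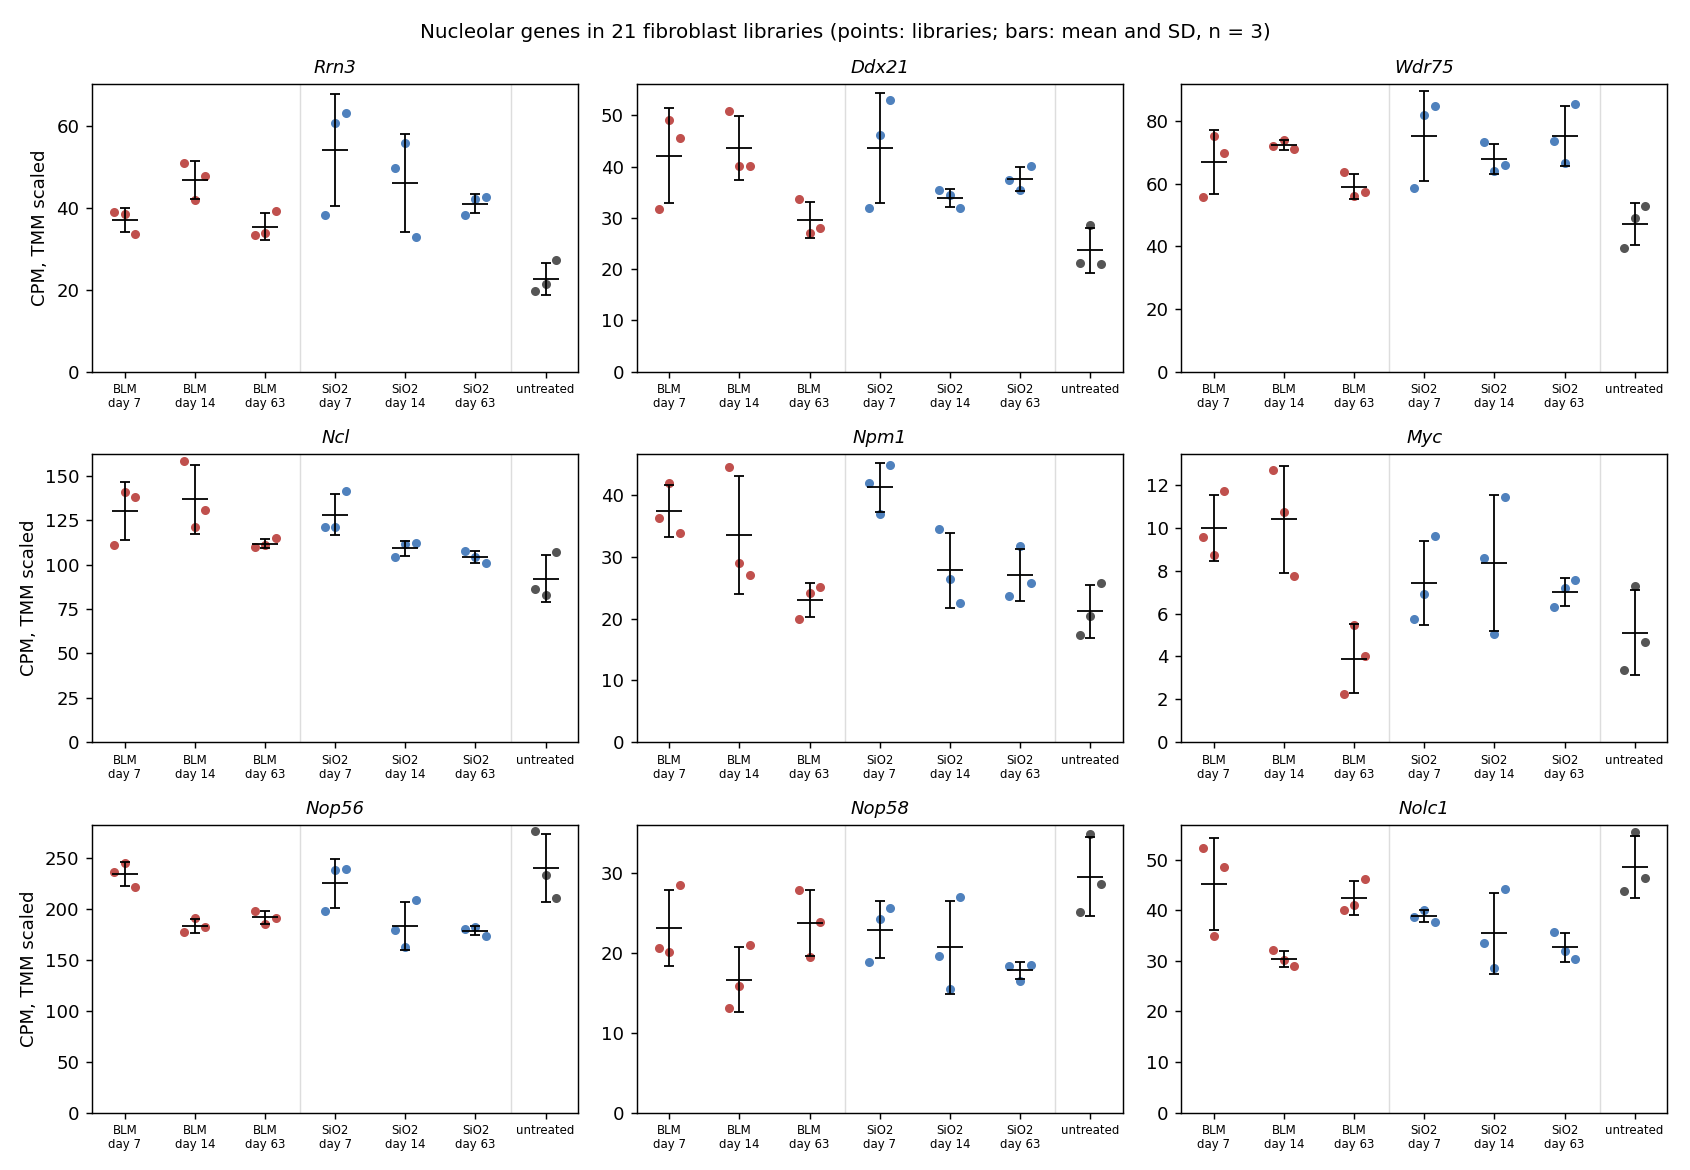
TMM-scaled CPM (vertical axis, from 0) of 9 genes in each of the 21 libraries, with treated groups to the left and untreated libraries at the right of each panel, points for libraries and bars for mean and SD (n = 3). All treated Rrn3 points lie above the untreated ones, Npm1 and Myc at BLM day 63 overlap the untreated range, and Nop56 is below the untreated libraries at BLM day 14, BLM day 63, SiO2 day 14 and SiO2 day 63.

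Of 8 snoRNP genes, Nop56 and Nop58 of the box C/D kind and the chaperone Nolc1 were called lower than untreated, only at day 14 or 63. Gar1 of the H/ACA kind was called higher only at day 7. Nhp2, also of that kind and on few counts, was called higher at BLM day 7 and 14 and SiO2 day 7 and 63. Fbl, Dkc1 and Nop10 were not called. Nop56 and Nop58 form the scaffold of the box C/D particle. In BLM libraries Nop56 had 236, 246 and 222 CPM at day 7, 177, 191 and 183 CPM at day 14 and 199, 186 and 192 CPM at day 63. In SiO2 libraries Nop56 had 198, 239 and 239 CPM at day 7, 179.8, 163 and 209 CPM at day 14 and 181, 182 and 174 CPM at day 63. Untreated libraries had 277, 234 and 211 CPM of Nop56. The day 7 libraries of both models overlapped the untreated ones, and from day 14 on all treated libraries were below all untreated ones. The log2 fold change was -0.39 ± 0.11 at BLM day 14 (adjusted p = 0.00442) and -0.33 ± 0.11 at BLM day 63 (adjusted p = 0.0437). In SiO2 it was -0.39 ± 0.11 at day 14 (adjusted p = 0.00762) and -0.43 ± 0.11 at day 63 (adjusted p = 0.00267). Without untreated replicate 1, the highest of the 3, the call was lost at BLM day 14 (adjusted p = 0.0613), BLM day 63 (adjusted p = 0.309) and SiO2 day 14 (adjusted p = 0.0992). At SiO2 day 63 it held in all 12 alternatives (highest adjusted p = 0.0449). The BLM day 63 call was also lost without untreated replicate 2 or any BLM day 63 library (adjusted p = 0.0654 to 0.144). No filter (adjusted p = 0.111) and the replicate block (adjusted p = 0.0576) lost it too. The SiO2 day 14 call was also lost without SiO2 day 14 replicate 2 (adjusted p = 0.0619).

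In BLM libraries Nop58 had 20.6, 20.1 and 28.5 CPM at day 7, 13.1, 15.8 and 21 CPM at day 14 and 27.9, 19.5 and 23.8 CPM at day 63. In SiO2 libraries Nop58 had 18.8, 24.2 and 25.6 CPM at day 7, 19.6, 15.5 and 27 CPM at day 14 and 18.4, 16.5 and 18.5 CPM at day 63. Untreated libraries had 25.1, 34.9 and 28.6 CPM of Nop58. The BLM day 14 and SiO2 day 63 libraries were all below the untreated ones. Nop58 fell at BLM day 14 (-0.82 ± 0.21, adjusted p = 0.00223) and at SiO2 day 63 (-0.73 ± 0.20, adjusted p = 0.00611), where the call was lost without untreated replicate 2 (adjusted p = 0.0689). Fbl, the methyltransferase of the same particle, had 5.51, 5.02 and 4.44 CPM at BLM day 7, 2.47, 3.88 and 3.32 CPM at BLM day 14 and 3.98, 4.02 and 3.56 CPM at BLM day 63. Fbl had 4.26, 5.58 and 3.54 CPM at SiO2 day 7, 4.75, 2.93 and 4.62 CPM at SiO2 day 14 and 2.89, 4.53 and 4.45 CPM at SiO2 day 63. Untreated libraries had 3.89, 4.77 and 2.81 CPM of Fbl. At 6 to 21 counts per library, Fbl was not called in any comparison, with log2 fold changes of -0.28 to 0.33 against untreated.

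In BLM libraries Nolc1, a nucleolar chaperone that binds both kinds of snoRNP, had 52.2, 34.9 and 48.5 CPM at day 7, 32.1, 30.2 and 29 CPM at day 14 and 40.1, 41 and 46.3 CPM at day 63. In SiO2 libraries Nolc1 had 38.6, 40.1 and 37.7 CPM at day 7, 33.6, 28.5 and 44.2 CPM at day 14 and 35.7, 31.9 and 30.3 CPM at day 63. Untreated libraries had 43.8, 55.5 and 46.4 CPM of Nolc1. The lowest groups were BLM day 14 and SiO2 day 63, which like SiO2 day 7 lay wholly below the untreated libraries. Nolc1 fell at BLM day 14 (-0.68 ± 0.16, adjusted p = 0.000989), SiO2 day 14 (-0.45 ± 0.16, adjusted p = 0.0313) and SiO2 day 63 (-0.58 ± 0.16, adjusted p = 0.00497). The SiO2 day 14 call was lost without untreated replicate 2 (adjusted p = 0.195), SiO2 day 14 replicate 1 (adjusted p = 0.103) or SiO2 day 14 replicate 2 (adjusted p = 0.185), and with only the groups compared (adjusted p = 0.0635). The SiO2 day 63 call was lost without untreated replicate 2 (adjusted p = 0.0572).

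Of the 4 H/ACA genes, Nhp2 showed the widest change on few counts. In BLM libraries Nhp2, an RNA-binding core protein of the particle, had 10, 16 and 11 counts at day 7, 21, 9 and 15 counts at day 14 and 8, 9 and 7 counts at day 63. In SiO2 libraries Nhp2 had 12, 9 and 16 counts at day 7, 10, 10 and 6 counts at day 14 and 11, 10 and 12 counts at day 63, against 5, 5 and 1 counts in untreated libraries. After scaling these were 2.90, 4.23 and 3.49 CPM at BLM day 7 and 3.01, 2.39 and 4.05 CPM at SiO2 day 7, against 1.30, 1.26 and 0.468 CPM in untreated libraries, and every treated library was above every untreated one. Nhp2 was higher at BLM day 7 (1.67 ± 0.52, adjusted p = 0.00797) and BLM day 14 (2.06 ± 0.51, adjusted p = 0.000684). It was also higher at SiO2 day 7 (1.5 ± 0.52, adjusted p = 0.0122) and SiO2 day 63 (1.30 ± 0.53, adjusted p = 0.0482). Nhp2 passed the filter on low counts through treated libraries only, so these calls are not read further. At BLM day 14 and SiO2 day 7 the call could be tested in 11 of the 12 alternatives. The SiO2 day 7 call was lost without SiO2 day 7 replicate 3 (adjusted p = 0.0678). The SiO2 day 63 call was lost without any 1 of untreated replicates 1, 2 and 3 and SiO2 day 63 replicates 1, 2 and 3 (adjusted p = 0.0819 to 0.138). It was kept in 1 of 12 alternatives, being lost also with DESeq2 (adjusted p = 0.103), both other scalings, no filter on low counts and only the groups compared. The 3′ end of Nhp2 overlaps Rmnd5b on the opposite strand by 44 exonic bases, and whether the counting used strand is not given in the sources used here.

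In BLM libraries Gar1, another H/ACA core protein, had 51.7, 59.2 and 53.9 CPM at day 7, 57.9, 43.3 and 47.8 CPM at day 14 and 29.9, 33.6 and 34.5 CPM at day 63. In SiO2 libraries Gar1 had 45.9, 65.4 and 65.8 CPM at day 7, 35.4, 45.6 and 35.7 CPM at day 14 and 38.9, 29.3 and 35.4 CPM at day 63. Untreated libraries had 40.9, 36.9 and 44.9 CPM of Gar1. The day 7 libraries were above the untreated ones in both models, and the BLM day 63 libraries were below them. Gar1 was higher at BLM day 7 (0.44 ± 0.15, adjusted p = 0.028) and SiO2 day 7 (0.54 ± 0.15, adjusted p = 0.00426). The BLM day 7 call was lost without untreated replicate 1 (adjusted p = 0.0638), untreated replicate 2 (adjusted p = 0.115) or BLM day 7 replicate 2 (adjusted p = 0.11), and with upper quartile scaling (adjusted p = 0.051). Dkc1, the pseudouridine synthase of the particle, had 106, 87.4 and 86.8 CPM at BLM day 7, 93.9, 68.1 and 66.3 CPM at BLM day 14 and 75.9, 71.7 and 79.2 CPM at BLM day 63. Dkc1 had 78.3, 94.3 and 103 CPM at SiO2 day 7, 75.8, 76.5 and 72.4 CPM at SiO2 day 14 and 71.2, 77.5 and 65.7 CPM at SiO2 day 63. Untreated libraries had 86.8, 69.3 and 81 CPM of Dkc1. Dkc1 was not called (log2 fold changes of -0.14 to 0.25), and its 3′ end shares 45 exonic bases with Mpp1 on the opposite strand, a gene with a median of 388 CPM. Nop10, the smallest of the core proteins, was not called either, with log2 fold changes of -0.37 to 0.25.

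Among the 10 small-subunit genes, those called against untreated were Wdr75, Heatr1 and Rrp12. Wdr75, a part of the complex that binds the start of the precursor and couples it to polymerase I, was called in 5 groups. In BLM libraries Wdr75 had 55.7, 75.3 and 70.0 CPM at day 7, 72, 74.1 and 71 CPM at day 14 and 63.7, 56.2 and 57.4 CPM at day 63. In SiO2 libraries Wdr75 had 58.7, 82.1 and 84.8 CPM at day 7, 73.4, 64.2 and 66.1 CPM at day 14 and 73.6, 66.8 and 85.7 CPM at day 63. Untreated libraries had 39.6, 49 and 52.9 CPM of Wdr75. As for Rrn3, every treated library was above every untreated one. Wdr75 was higher at BLM day 7 (0.52 ± 0.15, adjusted p = 0.00624) and BLM day 14 (0.63 ± 0.15, adjusted p = 0.000804). It was also higher at SiO2 day 7 (0.68 ± 0.14, adjusted p = 0.000238), SiO2 day 14 (0.54 ± 0.14, adjusted p = 0.00622) and SiO2 day 63 (0.69 ± 0.14, adjusted p = 0.000377). At BLM day 63 the log2 fold change was 0.34 ± 0.15 (adjusted p = 0.14). The BLM day 7 call was lost without untreated replicate 1 (adjusted p = 0.0612) or BLM day 7 replicate 2 (adjusted p = 0.0517). The SiO2 day 14 call was lost without untreated replicate 1 (adjusted p = 0.0748). Heatr1, a partner of Wdr75 in that complex, was called at SiO2 day 7 (0.72 ± 0.25, adjusted p = 0.018), a call lost without untreated replicate 1 (adjusted p = 0.0725), untreated replicate 3 (adjusted p = 0.0586) or SiO2 day 7 replicate 2 (adjusted p = 0.101). Rrp12, which helps export the subunit, was called there too (1.55 ± 0.54, adjusted p = 0.0131). It held 15, 11 and 6 counts at SiO2 day 7, against 4, 2 and 3 counts in untreated libraries. Rrp12 passed the filter on low counts through treated libraries only, so this call is not read further. The call could be tested in 9 alternatives, against 12 for Heatr1. It was lost without untreated replicate 2 (adjusted p = 0.101) and with DESeq2 (adjusted p = 0.0568).

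Utp20, a large scaffold of early small-subunit particles, had 26.1, 28 and 25.7 CPM at BLM day 7, 30.7, 21.5 and 28.2 CPM at BLM day 14 and 31.4, 23.2 and 26.9 CPM at BLM day 63. Utp20 had 20.8, 25.2 and 33.7 CPM at SiO2 day 7, 20.2, 16.8 and 17.7 CPM at SiO2 day 14 and 24.7, 22.9 and 26.3 CPM at SiO2 day 63. Untreated libraries had 23.1, 24.1 and 23.4 CPM of Utp20. The SiO2 day 14 libraries were below all others, and Utp20 was not called against untreated there (-0.37 ± 0.18, adjusted p = 0.136). Nop14, Utp15, Wdr43, Rrp9, Ddx10 and Tsr1, which work in the same early or later small-subunit particles, were not called against untreated either, and their log2 fold changes ranged from -0.73 for Nop14 at BLM day 14 to 0.74 for Ddx10 at BLM day 7.

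Among the 12 large-subunit genes, Noc2l and Nop16 were called higher in 3 groups each and Rrp1b and Pes1 were called lower. In BLM libraries Noc2l, which accompanies the pre-60S particle, had 48.5, 40.7 and 48.8 CPM at day 7, 46.3, 53.5 and 53.6 CPM at day 14 and 43.1, 28.1 and 39.4 CPM at day 63. In SiO2 libraries Noc2l had 45.6, 47 and 65.8 CPM at day 7, 44.3, 37.3 and 41.5 CPM at day 14 and 55.5, 52.2 and 36.5 CPM at day 63. Untreated libraries had 33.2, 38.7 and 30.4 CPM of Noc2l. Only the BLM day 63, SiO2 day 14 and SiO2 day 63 libraries overlapped the untreated ones. Noc2l was higher at BLM day 14 (0.57 ± 0.17, adjusted p = 0.00853), SiO2 day 7 (0.62 ± 0.17, adjusted p = 0.00365) and SiO2 day 63 (0.48 ± 0.17, adjusted p = 0.0363). The SiO2 day 7 call was lost without SiO2 day 7 replicate 3 (adjusted p = 0.0632). The SiO2 day 63 call was lost without any 1 of untreated replicates 1 and 3 and SiO2 day 63 replicates 1 and 2 (adjusted p = 0.119 to 0.176), with DESeq2 (adjusted p = 0.0558) and with upper quartile scaling (adjusted p = 0.083). Noc2l shares 598 exonic bases with Samd11 on the opposite strand, itself at a median of 0.223 CPM.

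In BLM libraries Nop16, a nucleolar protein of early 60S particles, had 9.58, 13.2 and 10.1 CPM at day 7, 14.5, 8.67 and 10.8 CPM at day 14 and 6.47, 6.31 and 5.11 CPM at day 63. In SiO2 libraries Nop16 had 10.0, 13.3 and 7.85 CPM at day 7, 11.9, 9.86 and 4.62 CPM at day 14 and 6.04, 9.85 and 6.23 CPM at day 63. Untreated libraries had 6.73, 7.28 and 3.28 CPM of Nop16. The BLM day 7, BLM day 14 and SiO2 day 7 libraries lay above the untreated ones. The calls at BLM day 7 (0.85 ± 0.32, adjusted p = 0.0379), BLM day 14 (0.87 ± 0.32, adjusted p = 0.028) and SiO2 day 7 (0.76 ± 0.32, adjusted p = 0.0479) each rested on single libraries. The first was lost without any 1 of untreated replicates 1 and 3 and BLM day 7 replicates 2 and 3 (adjusted p = 0.0516 to 0.165). The second was lost without untreated replicate 3 (adjusted p = 0.117) or BLM day 14 replicate 1 (adjusted p = 0.139). The last was lost without any 1 of untreated replicates 1 and 3 and SiO2 day 7 replicates 1 and 2 (adjusted p = 0.0737 to 0.223), with DESeq2 (adjusted p = 0.0621) and with both other scalings. With upper quartile scaling the call at BLM day 7 was lost too (adjusted p = 0.0511).

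In BLM libraries Rrp1b, a nucleolar factor of 60S assembly, had 37.7, 34.6 and 37.4 CPM at day 7, 31.1, 33.8 and 26.3 CPM at day 14 and 49.5, 44.8 and 44 CPM at day 63. In SiO2 libraries Rrp1b had 40.1, 42 and 43.5 CPM at day 7, 33.6, 36.8 and 41.8 CPM at day 14 and 44.7, 38.9 and 39.2 CPM at day 63. Untreated libraries had 50.0, 51.5 and 38.9 CPM of Rrp1b. Its BLM day 7 and day 14 libraries were all below the untreated ones. Rrp1b fell at BLM day 7 (-0.37 ± 0.13, adjusted p = 0.0329) and BLM day 14 (-0.64 ± 0.14, adjusted p = 0.000367). The call at BLM day 7 was lost without any 1 of untreated replicates 1 and 2 and BLM day 7 replicates 1, 2 and 3 (adjusted p = 0.0528 to 0.178), with no filter (adjusted p = 0.143) and with only the groups compared (adjusted p = 0.059). Pes1, which with Bop1 and Wdr12 forms the PeBoW complex of 60S maturation, had 47.6, 40.9 and 38 CPM at BLM day 7, 30.4, 40.3 and 32.1 CPM at BLM day 14 and 49.3, 54.5 and 44.9 CPM at BLM day 63. Pes1 had 42.6, 45.2 and 29.9 CPM at SiO2 day 7, 43.1, 41.6 and 46.6 CPM at SiO2 day 14 and 34.2, 43.7 and 44.3 CPM at SiO2 day 63. Untreated libraries had 47.4, 48.7 and 50.1 CPM of Pes1. It was lowest at BLM day 14 (-0.50 ± 0.15, adjusted p = 0.00965), a call lost without BLM day 14 replicate 1 (adjusted p = 0.0539). Its partners Bop1 and Wdr12 were not called against untreated, with log2 fold changes of 0.40 and 0.24 at BLM day 14. Nop2, a methyltransferase of the large ribosomal RNA, was called at SiO2 day 63 (0.62 ± 0.23, adjusted p = 0.0452). That call was lost without any 1 of untreated replicates 1, 2 and 3 and SiO2 day 63 replicates 1 and 2 (adjusted p = 0.0703 to 0.147). It was kept in 1 of 12 alternatives, being lost also with DESeq2 (adjusted p = 0.119) and the replicate block (adjusted p = 0.0543). Both other scalings, no filter and only the groups compared lost it too. Ftsj3, a partner of 60S processing, the nucleolar GTPases Gnl3 and Gnl2, Nip7 and Ebna1bp2 were not called against untreated, and their log2 fold changes ranged from -0.93 for Gnl3 at SiO2 day 14 to 0.53 for Ebna1bp2 at BLM day 7.

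Over time, the genes called lower made up 17.1% of the list from day 7 to day 14 of SiO2. They made up 4.88% over the same days of BLM and 22% from day 14 to day 63 of BLM. These shares are near those over all tested genes given below, so the counts say nothing particular about the list. From day 7 to day 14 of SiO2, 7 genes were lower at day 14 and 0 higher, where 11.1% of all tested genes were called lower and 12.2% higher. Of the 41, 11 had an unadjusted p under 0.05 and DESeq2 called 6 (20.6% of all genes). The 7 genes were Gar1 (-0.60 ± 0.15, adjusted p = 0.00309), Npm1 (-0.58 ± 0.18, adjusted p = 0.0172), Utp20 (-0.55 ± 0.17, adjusted p = 0.0194), Bop1, Polr1c, Nop56 and Gnl3, the last not called by DESeq2 (adjusted p = 0.111). The count was 1 without SiO2 day 7 replicate 3, 2 without SiO2 day 14 replicate 2 or 3 and 3 without SiO2 day 14 replicate 1. Gar1 kept its call in all 12 alternatives. Npm1 lost it without SiO2 day 7 replicate 3 (adjusted p = 0.079), SiO2 day 14 replicate 2 (adjusted p = 0.0652) or SiO2 day 14 replicate 3 (adjusted p = 0.121). Utp20 lost it without SiO2 day 7 replicate 3 (adjusted p = 0.228), SiO2 day 14 replicate 2 (adjusted p = 0.0855) or SiO2 day 14 replicate 3 (adjusted p = 0.0648), and with only the groups compared (adjusted p = 0.0566). From day 7 to day 14 of BLM, 2 genes were lower at day 14 and 0 higher, where 4.82% of all tested genes were called lower and 5.2% higher. Of the 41, 6 had an unadjusted p under 0.05 and DESeq2 called 2 (9.8% of all genes). The 2 genes were Nop56 (-0.35 ± 0.11, adjusted p = 0.0339) and Nolc1 (-0.57 ± 0.16, adjusted p = 0.0195). The Nop56 call was lost without any 1 of BLM day 7 replicates 1 and 2 and BLM day 14 replicates 1, 2 and 3 (adjusted p = 0.0563 to 0.108). The Nolc1 call was lost without BLM day 7 replicate 1 (adjusted p = 0.145), BLM day 7 replicate 3 (adjusted p = 0.0743), BLM day 14 replicate 2 (adjusted p = 0.0574) or BLM day 14 replicate 3 (adjusted p = 0.0797). The count was 0 without BLM day 7 replicate 1 or BLM day 14 replicate 3, and 1 without BLM day 7 replicate 2 or 3 or BLM day 14 replicate 2.

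From day 14 to day 63 of BLM, 9 genes were lower and 3 higher at day 63, where 16.9% of all tested genes were called lower and 15.4% higher. Myc was lower (-1.41 ± 0.34, adjusted p = 0.00124), as was Gar1 (-0.60 ± 0.15, adjusted p = 0.00307). Others that fell were Ddx21 (-0.56 ± 0.18, adjusted p = 0.0146), Nop16 (-0.91 ± 0.31, adjusted p = 0.0227), Nhp2, Npm1, Noc2l, Ubtf and Ftsj3, of which DESeq2 did not call Nhp2 (adjusted p = 0.0511) and Ftsj3 (adjusted p = 0.0768). The genes that rose were Rrp1b (0.60 ± 0.14, adjusted p = 0.000849), Pes1 (0.53 ± 0.15, adjusted p = 0.00755) and Nolc1 (0.48 ± 0.16, adjusted p = 0.0192). Gar1, Myc, Pes1 and Rrp1b kept the call in all 12 alternatives. The count was 7 without BLM day 14 replicate 1 or BLM day 63 replicate 3. Ddx21 lost its call without BLM day 14 replicate 1 (adjusted p = 0.0945), BLM day 63 replicate 2 (adjusted p = 0.0625) or BLM day 63 replicate 3 (adjusted p = 0.059). Nop16 lost it without BLM day 14 replicate 1 (adjusted p = 0.127) or BLM day 63 replicate 3 (adjusted p = 0.0891). Nolc1 lost it without BLM day 14 replicate 2 (adjusted p = 0.0505), BLM day 14 replicate 3 (adjusted p = 0.0686) or BLM day 63 replicate 3 (adjusted p = 0.0819). From day 14 to day 63 of SiO2, 0 genes were called, where 1.53% of all tested genes were called higher and 2% lower. Of the 41, 3 had an unadjusted p under 0.05 and DESeq2 called 0 (3.14% of all genes).

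The difference between the 2 changes was tested directly as the day 63 against day 14 change in SiO2 minus that in BLM. It was above 0 for Noc2l (0.69 ± 0.24, adjusted p = 0.0383) and Ddx21 (0.71 ± 0.25, adjusted p = 0.0413) and below 0 for Pes1 (-0.63 ± 0.21, adjusted p = 0.0346), where 9.7% of all tested genes were called above 0 and 8.81% below. For Myc it was 1.15 ± 0.45 (adjusted p = 0.072) and did not pass. Each call depended on single libraries. Noc2l lost it without any 1 of BLM day 14 replicates 2 and 3, SiO2 day 14 replicates 2 and 3, BLM day 63 replicate 2, and SiO2 day 63 replicates 1 and 2 (adjusted p = 0.0611 to 0.129), and with upper quartile scaling (adjusted p = 0.0543). Ddx21 lost it without any 1 of BLM day 14 replicate 1, SiO2 day 14 replicates 1, 2 and 3, BLM day 63 replicates 2 and 3, and SiO2 day 63 replicates 1, 2 and 3 (adjusted p = 0.0509 to 0.125), and with upper quartile scaling (adjusted p = 0.0552). Pes1 lost it without any 1 of BLM day 14 replicates 1 and 3, SiO2 day 14 replicates 1 and 3, BLM day 63 replicates 1 and 2, and SiO2 day 63 replicate 1 (adjusted p = 0.0502 to 0.104). The count of 3 was 0 without SiO2 day 63 replicate 1 and 1 without any 1 of BLM day 14 replicate 1, SiO2 day 14 replicates 1 and 3, BLM day 63 replicate 2 and SiO2 day 63 replicate 2.

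At matched days few of the 41 genes were called between the models. At day 7, Rrn3 was higher in SiO2 than in BLM (0.55 ± 0.17, adjusted p = 0.0391) and was the 1 gene called, where 5.29% of all tested genes were called higher and 5.1% lower. That call was lost, and the count fell to 0, without any 1 of BLM day 7 replicates 1, 2 and 3 and SiO2 day 7 replicates 2 and 3 (adjusted p = 0.0718 to 0.235), with upper quartile scaling (adjusted p = 0.0505) and with only the groups compared (adjusted p = 0.0631). At day 14, Utp20 was lower in SiO2 than in BLM (-0.55 ± 0.18, adjusted p = 0.0257) and was the 1 gene called, where 8.03% of all tested genes were called lower and 9.06% higher. Its call was lost without any 1 of BLM day 14 replicates 1 and 3 and SiO2 day 14 replicates 2 and 3 (adjusted p = 0.0826 to 0.141). The count was 0 without BLM day 14 replicate 1 or 3 or SiO2 day 14 replicate 3, and 3 without BLM day 14 replicate 2. At day 63, 0 genes were called, where 9.13% of all tested genes were called higher in SiO2 and 6.44% lower. Of the 41, 7 had an unadjusted p under 0.05 and DESeq2 called 0 (13.9% of all genes). The count was 1 without BLM day 63 replicate 2 or without SiO2 day 63 replicate 1 or 3.

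The Rn45s entry, named for the precursor from which the 18S and 28S RNAs are cut, was part of how the list was set up, so its level against untreated is a description with no test. In BLM libraries Rn45s had 1781, 1869 and 2103 CPM at day 7, 2556, 2222 and 2345 CPM at day 14 and 1477, 1664 and 1411 CPM at day 63. In SiO2 libraries Rn45s had 2268, 1888 and 1833 CPM at day 7, 1735, 1982 and 1842 CPM at day 14 and 1529, 1596 and 2004 CPM at day 63. Untreated libraries had 883, 1090.2 and 1094 CPM of Rn45s. All 18 treated libraries were above all untreated ones, and the highest library was BLM day 14 replicate 1. The log2 difference from untreated was 0.91, 1.22 and 0.57 at BLM day 7, 14 and 63 and 0.97, 0.86 and 0.74 at SiO2 day 7, 14 and 63. Between treated groups, Rn45s was lower at BLM day 63 than at BLM day 14 (-0.65 ± 0.11, adjusted p = 3.4e-05), while SiO2 day 63 against SiO2 day 14 was -0.12 ± 0.11 (adjusted p = 0.68). The difference of these changes, SiO2 minus BLM, was 0.53 ± 0.16 (adjusted p = 0.0158), a call lost without BLM day 63 replicate 3 (adjusted p = 0.0501) or SiO2 day 63 replicate 3 (adjusted p = 0.0798). At day 14 Rn45s was lower in SiO2 than in BLM (-0.36 ± 0.11, adjusted p = 0.0231), a call lost without BLM day 14 replicate 1 (adjusted p = 0.115), SiO2 day 14 replicate 1 (adjusted p = 0.101) or SiO2 day 14 replicate 3 (adjusted p = 0.0621).

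In each library the counts listed for Rn18s and Rn28s1 added up to 94.8% to 100.7% of the Rn45s count, so the entry cannot be read as precursor alone, and tags in these sequences do not tell precursor from mature RNA. The libraries were made from polyadenylated RNA, and Rn45s made up 0.148% to 0.249% of the counts in treated libraries and 0.0887% to 0.112% in untreated ones. The ratio of Rn18s to Rn28s1 counts was 2.21 to 2.86 at BLM day 7, 2.42 to 3.23 at BLM day 14 and 1.77 to 1.97 at BLM day 63. In SiO2 it was 2.43 to 2.75 at day 7, 2.82 to 3.24 at day 14 and 1.36 to 1.97 at day 63, against 2.39 to 2.65 in untreated libraries. Every day 63 library had a lower ratio than every other library. Rn18s was lower at BLM day 63 than at BLM day 14 (-0.83 ± 0.11, adjusted p = 4.44e-07). It was also lower at SiO2 day 63 than at SiO2 day 14 (-0.44 ± 0.11, adjusted p = 0.0165), a call lost without SiO2 day 14 replicate 2 (adjusted p = 0.072), SiO2 day 63 replicate 1 (adjusted p = 0.0627) or SiO2 day 63 replicate 2 (adjusted p = 0.113). Rn28s1 was not called in either comparison (-0.25 ± 0.14, adjusted p = 0.173, in BLM and 0.45 ± 0.14, adjusted p = 0.0638, in SiO2). Its difference of changes, SiO2 minus BLM, was 0.70 ± 0.19 (adjusted p = 0.0102), a call lost without SiO2 day 63 replicate 3 (adjusted p = 0.0675).

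**Figure D3:**
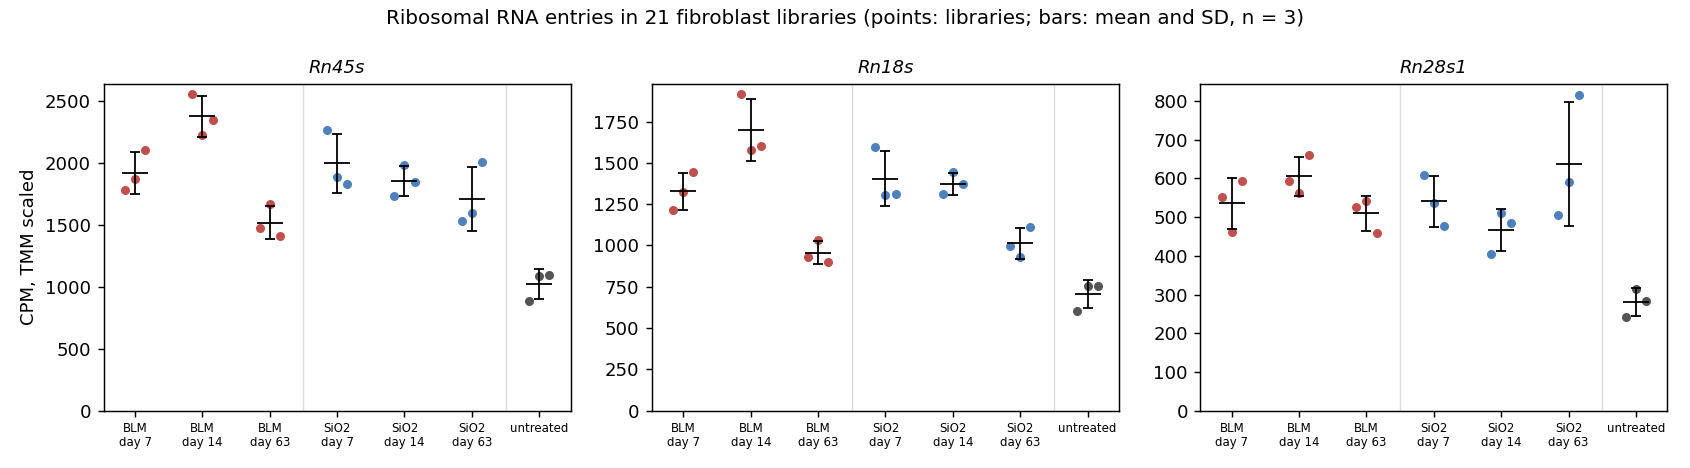
TMM-scaled CPM (vertical axes, from 0, with their own scale) of the Rn45s, Rn18s and Rn28s1 entries in each of the 21 libraries, with treated groups to the left and untreated libraries at the right, points for libraries and bars for mean and SD (n = 3). Rn45s is between 1411 and 2556 CPM in treated libraries, all above the untreated ones, and Rn18s is lower at day 63 than at day 14 in both models.

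The wider pathway was followed in 122 further ribosome biogenesis genes that are not on the list, of which 116 were tested. At BLM day 7, 10 were higher (8.62%, against 16.7% of all tested genes) and 5 lower (4.31%, against 14.9%). At BLM day 14, 10 were higher (8.62%, against 20.7%) and 13 lower (11.2%, against 18.5%). At BLM day 63, 2 were higher (1.72%, against 6.02%) and 5 lower (4.31%, against 5.48%). At SiO2 day 7, 16 were higher (13.8%, against 23.4%) and 7 lower (6.03%, against 20.6%). At SiO2 day 14, 7 were higher (6.03%, against 13.6%) and 12 lower (10.3%, against 10.5%). At SiO2 day 63, 5 were higher (4.31%, against 15.3%) and 14 lower (12.1%, against 12.5%). In all 6 comparisons the shares called higher lay below those of all tested genes. The shares called lower were close to those of all tested genes at BLM day 63, SiO2 day 14 and SiO2 day 63 and below them in the other groups. Their median log2 fold changes were 0.13, -0.06 and -0.04 at BLM day 7, 14 and 63 and 0.08, -0.05 and -0.03 at SiO2 day 7, 14 and 63. Of the 8 tested polymerase I and associated factors outside the list, 2 were called in any group, Taf1d (1.27 ± 0.37, adjusted p = 0.00426) and Polr1d (0.45 ± 0.18, adjusted p = 0.037), both higher at SiO2 day 7. Of 40 tested large-subunit factors, 6 were higher and 2 lower at BLM day 7 and 7 and 3 at SiO2 day 7. Among them was Mrto4, which mimics a stalk protein during assembly (0.82 ± 0.19 at BLM day 7, adjusted p = 0.0014, and 1.00 ± 0.19 at SiO2 day 7, adjusted p = 6.24e-05). Of 44 tested small-subunit factors, 3 were higher and 0 lower at BLM day 7 and 6 and 1 at SiO2 day 7. Among them was Wdr3 (0.83 ± 0.20 at BLM day 7, adjusted p = 0.00153, and 0.95 ± 0.20 at SiO2 day 7, adjusted p = 0.000192). Bms1, the GTPase of the particle, was called lower in every treated group but BLM day 7, from -0.42 ± 0.11 at SiO2 day 7 (adjusted p = 0.00195) to -0.62 ± 0.11 at BLM day 14 (adjusted p = 3.16e-05). Gltscr2, a nucleolar protein of 60S assembly, was lower in all 6 groups, from -0.37 at BLM day 63 to -0.83 at SiO2 day 63.

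At BLM day 7, BLM day 14 and SiO2 day 7, genes for the proteins of the finished ribosome were called higher in larger shares than all tested genes. Of 80 tested cytosolic ribosomal protein genes, 43 were higher at BLM day 7, 49 at BLM day 14 and 6 at BLM day 63, with 0 lower. Those called higher made up 53.8%, 61.3% and 7.5%, against 16.7%, 20.7% and 6.02% of all tested genes. In SiO2, 73 were higher and 0 lower at day 7. At SiO2 day 14, 5 were higher and 3 lower, and at SiO2 day 63, 11 were higher and 2 lower. Those called higher made up 91.2%, 6.25% and 13.8%, against 23.4%, 13.6% and 15.3% of all tested genes. Over all tested genes, 14.9%, 18.5% and 5.48% were lower in BLM and 20.6%, 10.5% and 12.5% in SiO2. Their median log2 fold changes were 0.37, 0.40 and 0.06 at BLM day 7, 14 and 63 and 0.62, 0.04 and 0.10 at SiO2 day 7, 14 and 63. Rps2, a small-subunit protein, rose by 0.70 ± 0.10 at BLM day 7 (adjusted p = 5.14e-06) and 1.15 ± 0.10 at SiO2 day 7 (adjusted p = 2.45e-10). Many of these genes have near-identical copies in the mouse genome, so their single values are uncertain. Cell-cycle genes moved in the same groups. Of 29 tested, 27 were higher at BLM day 7, 24 at BLM day 14 and 0 at BLM day 63. In SiO2, 28 were higher at day 7, 3 at day 14 and 3 at day 63, and 0 were lower in any group. The share called higher was 93.1%, 82.8% and 0% in BLM, against 16.7%, 20.7% and 6.02% of all tested genes. In SiO2 it was 96.6%, 10.3% and 10.3%, against 23.4%, 13.6% and 15.3%. At BLM day 63, 4 of the cell-cycle genes had an unadjusted p under 0.05 and DESeq2 called 0. Their sum was 467 to 630 CPM at BLM day 7, 221 to 449 CPM at BLM day 14 and 49.1 to 56.5 CPM at BLM day 63. It was 576 to 771 CPM at SiO2 day 7, 87.7 to 146 CPM at SiO2 day 14 and 90.9 to 110.2 CPM at SiO2 day 63, against 52.1 to 73.6 CPM in untreated libraries. The part of cell division in the changes of the 41 genes was not tested. In the Myc network, 8 of 10 genes were tested, and the called genes went both ways. Mnt, a repressor that competes with Myc for its partner, was lower in all 6 groups, from -0.34 ± 0.11 at SiO2 day 14 (adjusted p = 0.0254) to -0.61 ± 0.11 at BLM day 14 (adjusted p = 5.74e-05). Mga, which also binds that partner, was lower at BLM day 14 (-0.34 ± 0.12, adjusted p = 0.031) and SiO2 day 7 (-0.40 ± 0.12, adjusted p = 0.00943). Other antagonists of Myc rose: Mxd3 at BLM day 7 (2.12 ± 0.56, adjusted p = 0.00149) and SiO2 day 7 (2.62 ± 0.54, adjusted p = 3.77e-05), and Mxd4 at BLM day 14 (0.56 ± 0.10, adjusted p = 2.12e-05) and SiO2 day 63 (0.33 ± 0.10, adjusted p = 0.00854).

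**Figure D4:**
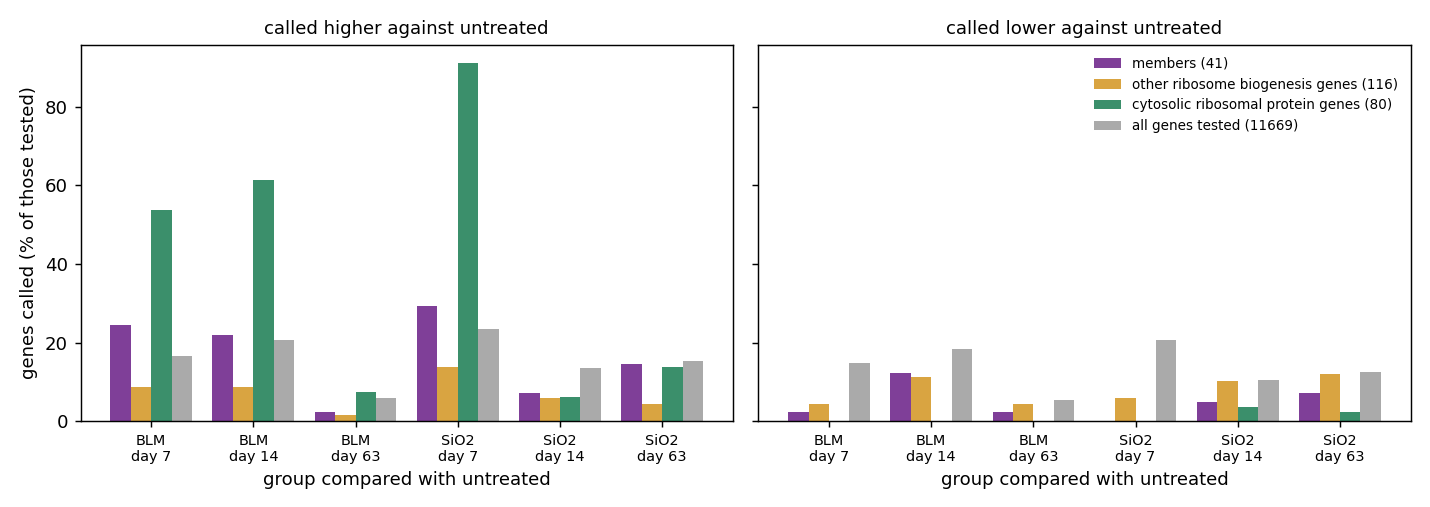
Share of tested genes (vertical axis, %) called higher (left) or lower (right) in each treated group against untreated, for the 41 listed genes, the 116 other ribosome biogenesis genes, the 80 cytosolic ribosomal protein genes and all 11669 tested genes. At SiO2 day 7 the ribosomal protein genes stand at 91.2% called higher, with the 41 genes at 29.3% close to the 23.4% of all genes.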

How the data were processed

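RNA of sorted lung fibroblasts was measured by 3′SAGE-seq in 21 libraries, 3 in each of 7 groups given by the titles. The authors deposited raw read counts per gene symbol, 1 table per library; Bowtie2 2.2.5 and the mm10 genome are named in the submitters' processing notes, and the counting program, its annotation and its use of strand are not given in the sources used here. Totals of 2080636 to 4477283 counts per library set the precision.

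Counts were fitted as deposited with edgeR 4.0.16 (R 4.3.3): filterByExpr kept 11669 of 23204 symbols holding 99.7% of counts, TMM scaled the libraries, and 1 quasi-likelihood fit over all 7 groups (14 residual degrees of freedom, biological coefficient of variation 12.0%) gave 14 comparisons. P-values were adjusted by Benjamini-Hochberg over all tested genes, with a threshold of 0.05. The steps were tested on simulated data. Alternatives were DESeq2 1.42.0, 2 other scalings, no filter, a replicate block, only the groups compared, and each library left out in turn.

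The members and gene lists were chosen with earlier results of these data known. Values in every library are given for a fixed set of core genes (Ncl, Npm1, Fbl, Nop56, Nop58, Dkc1, Polr1a, Polr1b, Ubtf, Rrn3 and Myc) for other members called in at least 3 of the 6 comparisons with untreated, and for up to 3 called members with the smallest adjusted p in each other comparison; genes of other lists are named from the 4 with the smallest adjusted p, and any other name was chosen after its values were seen. Promoters and motifs came from RefSeq (GRCm38.p6), and overlaps with genes on the opposite strand from GENCODE vM21. Of the 41 members, 17 share exonic bases with a gene on the opposite strand, 9 of them at the 3′ end, where tags of both genes cannot be told apart without strand: Nop56, Dkc1, Nhp2, Mybbp1a, Noc2l, Bop1, Gnl2, Heatr1 and Tsr1. Same-numbered replicates did not deviate together (correlations of -0.12 to 0.06 over 63 pairs), so they were not paired.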

Additional observations from a re-analysis of the deposited data

Results flagged for a closer look

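The changes from day 14 to day 63 of 3 listed genes and 2 ribosomal RNA entries differed between the models by a direct test of the difference (edgeR's quasi-likelihood test, SiO2 minus BLM). The difference was 0.69 for Noc2l (adjusted p = 0.0383), which at day 63 against day 14 was 0.22 in SiO2 and -0.47 in BLM on the log2 scale. It was 0.71 for Ddx21 (adjusted p = 0.0413) and -0.63 for Pes1 (adjusted p = 0.0346). For the ribosomal RNA entries it was 0.53 for Rn45s (adjusted p = 0.0158) and 0.70 for Rn28s1 (adjusted p = 0.0102). Each of these calls was lost when certain single libraries were left out, as given in the report.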

How the results depend on the processing

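Over all results and alternatives, 7282 values kept their side of the threshold, 245 passed it in the reported fit only and 73 passed it only in the alternative. Direction was compared only for values that passed the threshold in either fit, and none of these reversed. The count of listed genes called at BLM day 63 against untreated was 1 in place of 2 without the filter on low counts. For SiO2 against BLM at day 7 it was 0 in place of 1 with upper quartile scaling and with only the groups compared, at day 14 it was 2 in place of 1 with DESeq2 size factors and with upper quartile scaling, and at day 63 it was 1 in place of 0 with upper quartile scaling and with only the groups compared. For SiO2 day 14 against SiO2 day 7 it was 4 in place of 7 without the filter and 3 with only the groups compared. The cause was not tested. Upper quartile scaling moved the share of calls that were higher over all genes at SiO2 day 14 against untreated to 44.8%, against 56.4% with TMM.

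Leaving out 1 library at a time, the count ran from 5 to 10 at BLM day 7 against untreated, 10 to 15 at BLM day 14, 0 to 3 at BLM day 63, 9 to 11 at SiO2 day 7, 3 to 7 at SiO2 day 14 and 5 to 8 at SiO2 day 63. For SiO2 against BLM it ran from 0 to 1 at day 7, 0 to 3 at day 14 and 0 to 1 at day 63. It ran from 0 to 2 for BLM day 14 against day 7, 1 to 7 for SiO2 day 14 against day 7, 7 to 10 for BLM day 63 against day 14 and 0 to 4 for the difference of changes, and was 0 throughout for SiO2 day 63 against day 14.

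With the replicate block, the count was 11, 15 and 1 at BLM day 7, 14 and 63 and 12, 5 and 8 at SiO2 day 7, 14 and 63 against untreated, and 5 for SiO2 day 14 against day 7. Same-numbered libraries deviated together no more than others (median correlation -0.000379), and 4 of 21 correlated best with a library of their own number. This check cannot tell whether equal numbers share a litter or a day, which the titles do not say. Low counts limit 11 of the 41 genes, which held under 10 in at least 1 library, among them Nhp2, Polr1b, Rrp12, Rrp9 and Gnl3 with as few as 1 to 3.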
